A study of Rattus norvegicus with 132 samples.

Results

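The comparison described here is between kidneys of RM-HS rats and kidneys of HS rats at the corticomedullary junction, measured by GeoMx spatial profiling. In this assay the probes bound to a tissue section carry barcodes; light frees the barcodes of 1 region of interest (ROI) at a time, and sequencing counts them. Of 132 ROIs in the series, 17 belonged to the comparison: the 8 ROIs titled as RM-HS at the junction, all on collection plate C, and the 9 titled as HS at the junction, all on plate E. The series had 4 groups of 3 rats each (Sham, RM, HS and RM-HS), fixed and paraffin-embedded kidney sections of 4 µm, and 4 kidney areas (cortex, junction, glomeruli and medulla). RM and HS are not spelled out in the labels; in trauma-induced acute kidney injury they often mean rhabdomyolysis (muscle breakdown) and hemorrhagic shock (blood loss). That reading is not stated in the labels, and neither are the strain, age, sex or time after injury in the sources used here. On it, both groups carried HS, and RM was what set RM-HS apart. The ROIs were picked by hand. Sham at the junction had 6 ROIs on plate C and 3 on plate E, and RM had 8 on plate C.

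The corticomedullary junction holds the straight part of the proximal tubule, where it lies close to thick ascending limbs. This segment is known for its high energy use and its sensitivity to low blood flow, and in the filtering of myoglobin released by damaged muscle the proximal tubule takes up heme-bearing protein. Injured tubule cells are known to switch on immediate early genes, which encode transcription factors and signalling brakes made within minutes to hours of a stimulus, followed by injury proteins such as Havcr1 (kidney injury molecule 1) and Spp1 (osteopontin). Gadd45a and Btg2 belong to the growth arrest genes that p53 and stress kinases are known to induce.

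The labelled area was checked against markers of its segments. Levels are given here as the authors' Q3-normalised signal, which sets the 75th percentile of every ROI to 58.2. Slc7a13, which carries amino acids in the straight proximal tubule, ranged from 1459 to 2620 in RM-HS at the junction and from 1221 to 4188 in HS, against no more than 87.2 in cortex or medulla of either group. Slc3a1 and Aadat, from the same segment, were likewise above every cortical and medullary ROI of their own group. Slc12a1, the cotransporter of the thick ascending limb, was lower at the junction (112 to 259 in RM-HS) than in RM-HS medulla (528 to 712), while HS at the junction (188 to 590) overlapped HS medulla (516 to 844).

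RM-HS ROIs held 1074235 to 1990217 recovered reads and HS ROIs 335363 to 1124738, while the negative probe, a measure of background, ranged from 19.8 to 27.3 in RM-HS and from 15.4 to 26.5 in HS. Plate and injury coincide for these ROIs, so the plate difference was taken from Sham, the only group on both plates. Among the wells, the ROIs of each group form 3 runs of consecutive positions, numbered here 1 to 3. HS run 3 differed in background and depth. Its median negative probe was 16.3, against 25.4 and 21.5 in HS runs 1 and 2. Its median reads were 993504, against 561505 and 342696. Its 3 junction ROIs correlated with those of HS runs 1 and 2 at a median of 0.826 (range 0.7875 to 0.8761). Between runs 1 and 2 the median was 0.852 (0.8309 to 0.8755), so these ranges overlap. No label equates a run with an animal or ties ROIs to animals. With 3 rats a group some ROIs must share an animal, and all p-values here, which are computed over ROIs, are too small.

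At the junction, RM-HS was higher than HS in most immediate early genes, in the growth arrest genes Gadd45a and Btg2, in Atf3, Atf4 and Ppp1r15a of the integrated stress response and in Plin2 and G0s2 of lipid droplets. It was lower in 6 genes, among them Klf15, Hnf4a and Slc23a1. Of 8799 genes tested, 115 (1.31%) passed an adjusted p of 0.05 in limma, 109 (1.24%) of them higher in RM-HS and 6 (0.0682%) lower. Such genes are called risen or fallen here, and a rise is in RM-HS relative to HS. The rises spanned 0.63 to 2.80 on the log2 scale with a median of 1.15, and 76 of 109 exceeded 1. The median log2 fold change over all genes tested was -0.03. In 59 of the 109 every RM-HS ROI lay above every HS ROI, as it did in 143 (1.63%) of all genes, and in 5 of the 6 falls every RM-HS ROI lay below, as in 36 (0.409%) of all genes.

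The count of calls moved with single runs. It was 63 without RM-HS run 2, 63 without RM-HS run 3, 61 without Sham run 1 and 791 without HS run 3. Those 791 are 8.99% of the genes tested, with 564 (6.41%) higher and 227 (2.58%) lower, and the list counts given below without HS run 3 are to be read against these shares. All 109 rises and all 6 falls were among those 791. The split of 109 higher and 6 lower became 176 and 47 after quantile normalisation and 425 and 138 in edgeR on the recovered reads. In a fit to junction ROIs alone, 43 of the 109 rises and 2 of the 6 falls passed, and with a single mean per run and area 32 and 1 did. Every called gene kept its direction in these fits.

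A plate difference between C and E was measured in Sham at the junction, where 1132 genes (12.9%) passed the threshold, 627 (7.13%) higher on plate C and 505 (5.74%) higher on plate E. Plate E held a single Sham run, so that plate and run cannot be told apart there. Of the 109 rises, 29 were among these plate-flagged genes, and of the 6 falls 2 were (Hnf4a and Tsc22d3). Without a plate term, 82 of the 109 rises still passed, and of the 27 that did not, 20 were plate-flagged. In Sham at the junction, all 29 plate-flagged rises were lower on plate C than on plate E. A plate term of that sign adds to the difference. Where a named gene is plate-flagged this is stated. Of the 109 rises, 11 had a median HS level under 2 times the negative probe.

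**Figure D1:**
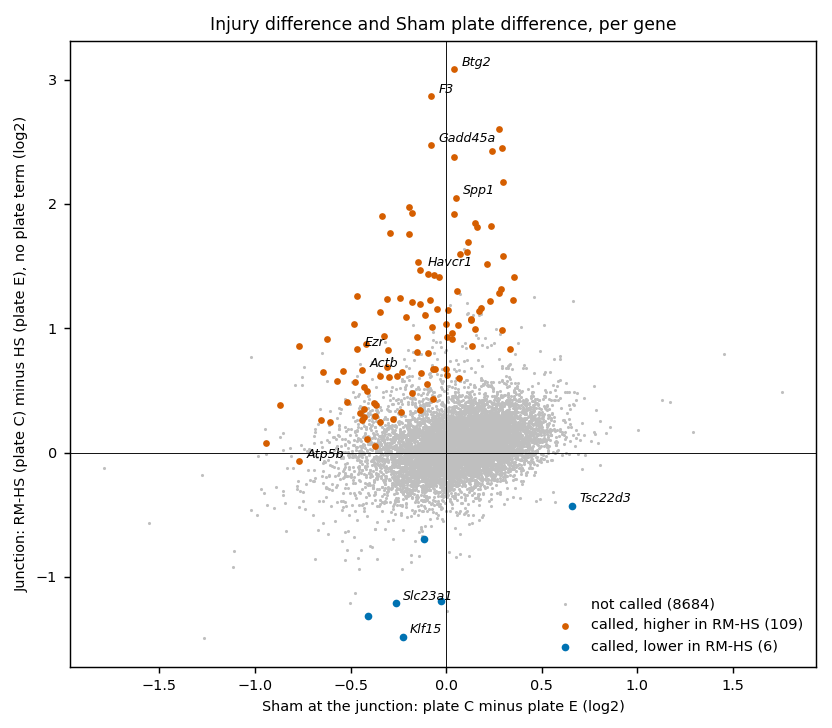
Each point is a gene tested. The horizontal axis gives the Sham difference at the junction between plates C and E (log2) and the vertical axis the difference between RM-HS and HS with no plate term (log2); orange points are the 109 rises, blue points the 6 falls and grey points genes not called. Gadd45a, F3 and Btg2 lie near a Sham difference of 0, Actb, Ezr and Atp5b lie to the left with Sham lower on plate C, and Tsc22d3 lies to the right.

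The promoters of the 3 marker genes and of Btg2, among the largest rises, are shown so that the genes that rose together can be set side by side. They come from RefSeq (rat assembly GRCr8) and cover the 250 bases before the transcription start; 88 of the 109 risen genes had such an entry. Capitals mark matches on either strand to TGACTCA (AP-1), TGACGTCA (CRE), TGCGTCA (CRE-like), CACGTG (E-box), GAANNTTC (heat shock), TGCGCNC or TGCACNC (metal response) and GGAANTCCC (NF-kB).

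Gadd45a, chr4:97486800-97487049, minus strand: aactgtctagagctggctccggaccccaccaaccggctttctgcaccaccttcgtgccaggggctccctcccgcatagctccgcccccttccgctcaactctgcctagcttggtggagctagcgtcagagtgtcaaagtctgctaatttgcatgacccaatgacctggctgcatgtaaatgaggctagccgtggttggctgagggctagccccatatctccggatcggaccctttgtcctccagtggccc
Btg2, chr13:48087691-48087940, minus strand: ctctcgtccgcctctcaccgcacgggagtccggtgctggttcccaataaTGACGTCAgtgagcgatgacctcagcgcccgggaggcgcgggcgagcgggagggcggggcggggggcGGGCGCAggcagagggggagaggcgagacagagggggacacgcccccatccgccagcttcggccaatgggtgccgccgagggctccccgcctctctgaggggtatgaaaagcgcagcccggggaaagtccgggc
Spp1, chr14:5619805-5620054, minus strand: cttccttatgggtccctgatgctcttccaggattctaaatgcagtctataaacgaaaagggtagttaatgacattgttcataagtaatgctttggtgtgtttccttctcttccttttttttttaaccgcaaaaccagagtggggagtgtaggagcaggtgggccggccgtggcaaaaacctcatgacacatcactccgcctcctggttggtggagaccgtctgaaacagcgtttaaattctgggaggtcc
Havcr1, chr10:31629528-31629777, plus strand: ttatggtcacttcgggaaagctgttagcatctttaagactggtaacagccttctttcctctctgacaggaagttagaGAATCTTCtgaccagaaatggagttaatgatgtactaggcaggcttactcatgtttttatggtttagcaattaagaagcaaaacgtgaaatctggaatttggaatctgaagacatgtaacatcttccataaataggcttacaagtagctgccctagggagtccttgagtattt

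The Btg2 stretch holds TGACGTCA, its first base 201 bases before the start, and a reverse-strand match to TGCGCNC 134 bases before it. Havcr1 holds GAANNTTC at 173 bases before the start, and neither the Gadd45a nor the Spp1 stretch holds any of these letters. TGACGTCA occurred in 6.82% of the risen genes with an entry (6 of 88), against 2.89% of 6573 tested genes with an entry and 1.7% of all 27457 promoters. TGCGTCA occurred in 7.95% of risen genes, 3.3% of tested genes and 1.84% of all promoters. TGACTCA occurred in 6.82%, 3.15% and 3.98% in the same order, CACGTG in 10.2%, 8.26% and 5.79%, and GAANNTTC in 3.41%, 4.53% and 7.02%. TGCGCNC was found in 28.4%, 22.6% and 12.7%, TGCACNC in 13.6%, 11.4% and 10.2%, and GGAANTCCC in 2.27%, 1.67% and 1.51%. These are counts of letters, and a match is not a site known to be bound.

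Gadd45a, which encodes a stress-inducible growth arrest protein, was among the largest rises. Its signal had a lowest, median and highest value of 227, 333 and 371 in the 8 RM-HS ROIs and of 34.8, 58.2 and 90.8 in the 9 HS ROIs. The groups did not overlap, and the HS values spanned those of Sham (45.7 to 60.3 on plate C, 51.5 to 61.7 on plate E). The log2 fold change was 2.78 ± 0.30 (SE; limma, adjusted p = 9.5e-13), with a 95% interval of 2.20 to 3.37. The Sham plate difference at the junction was -0.08, but the plate term of the fit was -0.32. Without the plate term the log2 fold change was 2.46. RM at the junction ranged from 180 to 275, which overlaps the lowest RM-HS values.

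Havcr1, the tubular injury receptor that binds phosphatidylserine on dying cells, ranged from 193 to 544 in RM-HS (median 371) and from 70.3 to 173 in HS (median 122). Every RM-HS ROI exceeded every HS ROI, and both groups exceeded every Sham ROI, of which the highest was 49.7. RM at the junction ranged from 277 to 519, within the range of RM-HS. RM-HS run 1 was the lowest of its group (mean 212), and HS run 1 likewise (84.5 against 145 and 143). The rise was 1.44 ± 0.30 (adjusted p = 0.00107), with a Sham plate difference of -0.14. With a mean per run and area the adjusted p was 0.0533, and with the negative probe subtracted it was 0.298.

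Spp1, the secreted phosphoprotein osteopontin, ranged from 652 to 1189 in RM-HS (median 957) and from 73.5 to 1493 in HS (median 188). The RM-HS runs were alike, with means of 919, 973 and 939, while the HS runs had means of 83.7, 183 and 825. The ROIs of HS run 3 thus overlapped RM-HS, and its highest ROI exceeded every RM-HS ROI. Sham ranged from 43.8 to 116, and RM at the junction from 542 to 1726. The log2 fold change of 2.58 ± 0.50 passed in the fit to all areas (adjusted p = 0.000207), but the adjusted p was 0.305 for junction ROIs alone and 0.396 with a mean per run and area. Without the plate term it was 2.05. The plate term was -0.53, while the Sham plate difference at the junction was 0.05.

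**Figure D2:**
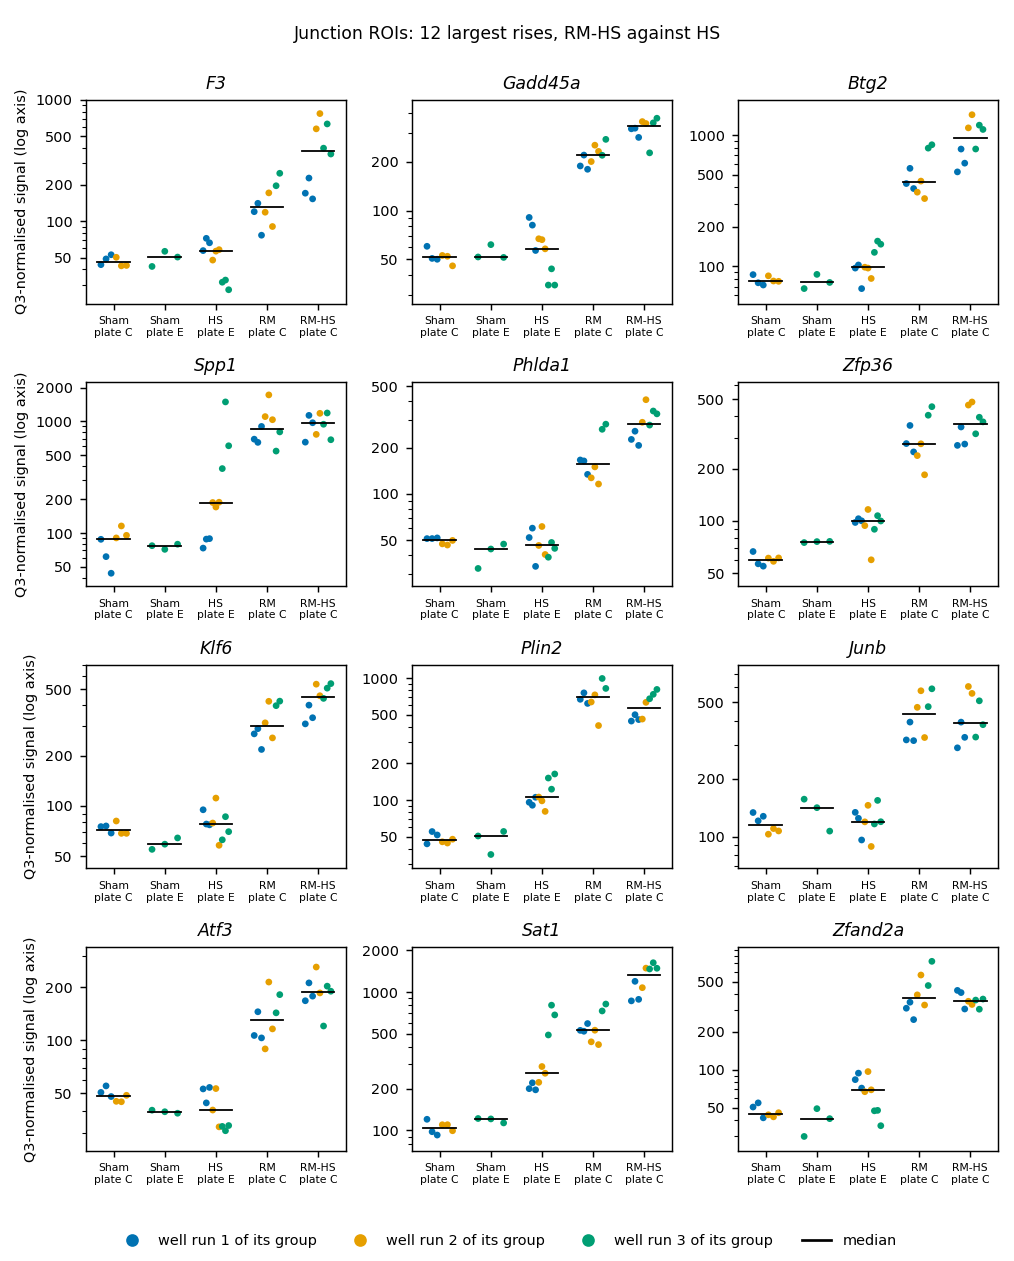
Q3-normalised signal (log axis) of the 12 largest rises in every junction ROI, by group and plate; point colour gives the well run within the group and the black line the median. RM-HS lies above HS in every ROI for all of these genes but Spp1, where HS run 3 reaches the RM-HS values.

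Most of the immediate early genes measured rose. Of 29 tested, 18 rose and none fell, against 1.24% and 0.0682% of all genes, and their median log2 fold change was 1.15 (-0.03 over all genes). The same shares of all genes stand beside the main count of every list below. Members and lists were chosen with earlier results of these data known, so a gap to these shares is not independent support. Their summed signal was 3971 to 6450 in RM-HS and 1832 to 2237 in HS. The called members encode AP-1 subunits (Fosl1, Fosl2, Jun, Junb, Jund, Maff), zinc finger factors (Egr1, Klf4, Klf6, Klf10), the RNA decay factors Zfp36 and Zfp36l1, the MAP kinase phosphatases Dusp5 and Dusp6, the EGF receptor inhibitor Errfi1, and Ier3, Ier5 and Myc. Relative to Sham on the same plate, the median member was higher by 1.17 in RM-HS and by 0.01 in HS (both log2). Without the plate term 21 members passed, in the fit to junction ROIs 13, with a mean per run and area 9, and without HS run 3 21.

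Zfp36 (tristetraprolin, which speeds the decay of cytokine mRNAs) ranged from 272 to 482 in RM-HS (median 359) and from 59.8 to 116 in HS (median 99.9). Its rise was 2.19 ± 0.25 (adjusted p = 2.89e-11). It is plate-flagged, with Sham lower on plate C by 0.34 (difference -0.34), and the difference without the plate term was 1.92. Klf6, an injury-induced zinc finger factor, had values of 310, 449 and 540 against 58.2, 77.9 and 111, a rise of 2.18 ± 0.28. Junb went from 88.9, 119 and 154 in HS to 289, 388 and 603 in RM-HS, a rise of 2.14 ± 0.29. Dusp5, which removes phosphate from ERK, had 168, 245 and 316 against 41.2, 74.4 and 96.9, a rise of 1.83 ± 0.28. None of these 4 overlapped between the groups. Nr4a1, a nuclear receptor of the same class of early genes, had a log2 fold change of -0.07 ± 0.26 and was not called.

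**Figure D3:**
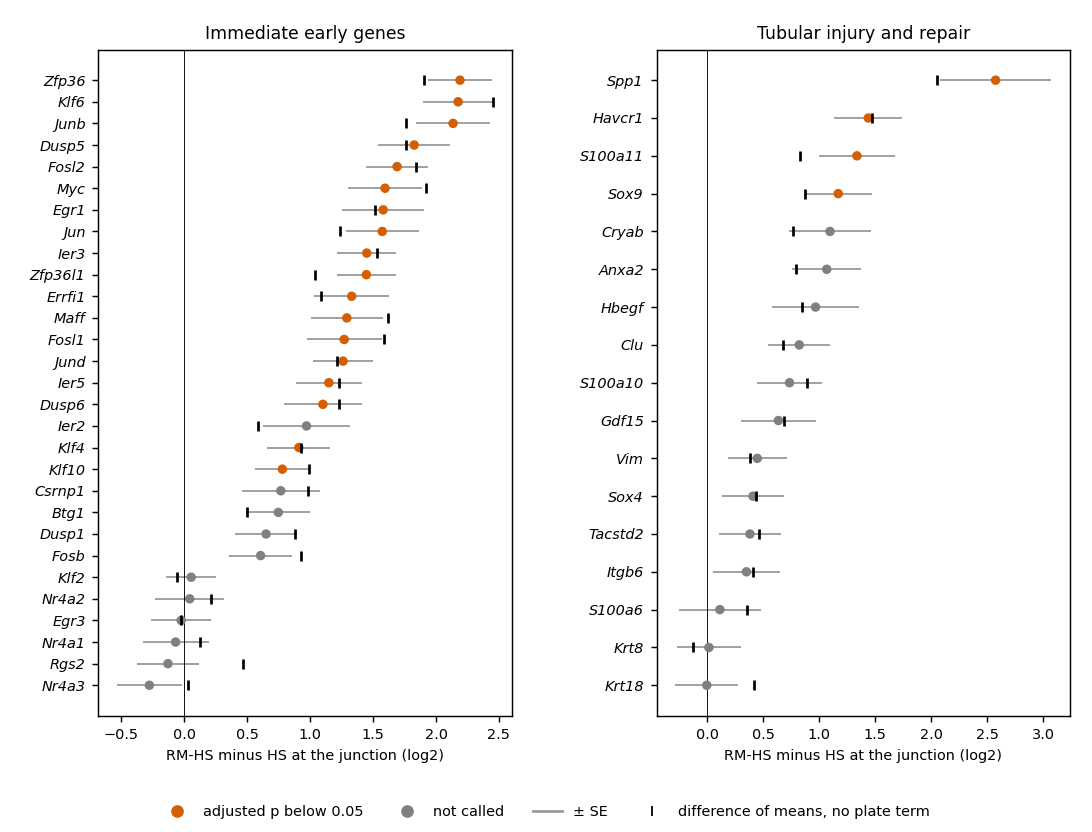
Log2 fold change (RM-HS minus HS at the junction, horizontal axis) of every tested member of 2 gene lists, with its SE; orange points passed the adjusted p of 0.05 and black ticks give the difference without the plate term. Of the immediate early genes 18 of 29 passed and of the tubular injury genes 4 of 17.

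Growth arrest and survival genes were led by Gadd45a and Btg2. Btg2, an antiproliferative cofactor of mRNA deadenylation whose promoter is printed above, ranged from 524 to 1428 in RM-HS (median 942) and from 67.6 to 156 in HS (median 98.4). All RM-HS ROIs were above all HS ROIs, and the rise was 2.71 ± 0.29 (adjusted p = 1.48e-12). Of 12 tested members these 2 rose and none fell, against 1.24% and 0.0682% of all genes, and the list's median was 0.63. Gadd45g had a log2 fold change of 1.01 ± 0.29 (adjusted p = 0.0539). Cdkn1a, the cell cycle inhibitor p21, had a log2 fold change of 0.67 ± 0.23 (adjusted p = 0.174). Without the plate term 4 members passed, Gadd45g and Cdkn1a among them (adjusted p 2.31e-06 and 4.95e-05). Without HS run 3, 6 of the 12 passed. Of 5 cell cycle genes tested none passed.

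Tubular injury and repair genes held 4 rises among 17 tested, no fall and a median of 0.73. Besides Havcr1 and Spp1 these were Sox9, the transcription factor of regenerating tubule cells, and S100a11, a calcium-binding protein. Sox9 had 75.2, 124 and 184 in RM-HS against 50.1, 56.5 and 96.4 in HS, a rise of 1.17 ± 0.30 (adjusted p = 0.0191). It is plate-flagged (Sham difference -0.42) and did not pass when RM-HS run 2 or 3, HS run 1 or Sham run 1 was left out (adjusted p 0.0802, 0.257, 0.0789 and 0.19). S100a11 overlapped between the groups (109 to 211 against 51.7 to 196) and rose by 1.34 ± 0.34, but did not pass without RM-HS run 2, HS run 1 or Sham run 1 (adjusted p 0.116, 0.084 and 0.263) or in junction ROIs alone (0.306). Of the 17 members, 16 had a positive log2 fold change. Anxa2 (1.07 ± 0.31, adjusted p = 0.0521), Cryab (1.10 ± 0.37, adjusted p = 0.158) and S100a10 (0.73 ± 0.29, adjusted p = 0.342) were not called. Without the plate term 7 members passed, Anxa2 and S100a10 among them. The keratin genes Krt8 and Krt18 had log2 fold changes of 0.01 and -0.01, the values nearest 0 in the list. The list's count was 2 without RM-HS run 2, 2 without Sham run 1, 10 without HS run 3 and 0 with a mean per run and area.

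F3, tissue factor, which starts blood coagulation and is induced by cytokines, had the largest fold change. Its signal was 152, 378 and 770 in RM-HS and 27.2, 56.5 and 72.1 in HS, with no overlap. RM-HS run 1 was lower (mean 183) than runs 2 and 3 (673 and 463). The rise was 2.80 ± 0.33 (adjusted p = 2.89e-11). HS lay near Sham, which ranged from 42.3 to 56.4 over both plates, and RM ranged from 76.5 to 248. Within the list of cytokines and NF-kB or STAT3 responses, F3, Stat3 and its feedback inhibitor Socs3 rose (3 of 13), and the list's median was 0.28. Socs3 lay near background in HS, at 1.23 times the negative probe against 2.41 times in RM-HS, and rose by 1.25 ± 0.30. Its adjusted p was 0.0656 without Sham run 2 and 0.314 in junction ROIs alone. Stat3 overlapped between the groups (158 to 313 against 76.8 to 241), with HS run 3 at a mean of 226, and rose by 1.15 ± 0.25. Its adjusted p was 0.0636 without HS run 1 and 0.287 in junction ROIs alone. Nfkbia, the inhibitor that NF-kB induces, had a log2 fold change of 0.16 ± 0.30. Without HS run 3 the list's count was 5.

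The integrated stress response was represented by 3 rises among 17 genes tested, with a list median of 0.24. Atf3, a transcription factor induced by Atf4, had 121, 188 and 261 against 30.7, 40.3 and 54.1, and rose by 2.11 ± 0.33; in HS it lay near background, at 1.99 times the negative probe. Atf4 itself, the factor translated when eIF2 is phosphorylated, rose by 1.65 ± 0.22, from 84.0 to 120 in HS to 204 to 389 in RM-HS. Ppp1r15a (Gadd34), which removes that phosphate, rose by 1.61 ± 0.23, from 31.4 to 62.6 to 119 to 201. None of the 3 overlapped. Ddit3 (CHOP), a target of Atf4, had a log2 fold change of 0.10 ± 0.23, and the chaperone gene Hspa5 of the endoplasmic reticulum had 0.77 ± 0.36 (adjusted p = 0.617). The list's count without HS run 3 was 5.

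Among heat shock genes 2 of 14 rose, and the list's median was 0.46. Zfand2a, an arsenite-inducible zinc finger protein tied to the proteasome, had 303, 354 and 428 in RM-HS and 36.0, 69.5 and 96.9 in HS, and rose by 1.96 ± 0.30, though its adjusted p was 0.125 with the negative probe subtracted. Dnaja1, a partner of Hsp70, had 326, 442 and 813 against 181, 223 and 340, and rose by 1.27 ± 0.27. Dnaja1 is plate-flagged (Sham difference -0.62), and after quantile normalisation its log2 fold change was 0.67 (adjusted p = 0.117). Of the 14 members, 13 had a positive log2 fold change. Hspa1a had 1.68 ± 0.51 and was not called (adjusted p = 0.0748), but it passed without the plate term (adjusted p = 0.000904). In HS it lay near background, at 1.41 times the negative probe. Hspb1, the small heat shock protein, had a log2 fold change of 0.11 ± 0.35. Without HS run 3 the list's count was 8.

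Lipid droplet and lipid synthesis genes gave 3 rises among 14 tested, with a list median of 0.09. Plin2, the coat protein of lipid droplets, had 445, 567 and 808 in RM-HS and 80.8, 105 and 164 in HS. All RM-HS ROIs lay above all HS ROIs, and both groups lay above Sham (35.8 to 55.3). The rise was 2.14 ± 0.36 (adjusted p = 6.92e-06), or an adjusted p of 0.197 with the negative probe subtracted. G0s2, an inhibitor of the lipase that breaks down stored triglyceride, had 143, 187 and 295 against 59.2, 68.4 and 103 and rose by 1.80 ± 0.30. Acly, which makes cytosolic acetyl-CoA, had 105, 113 and 156 against 43.9, 60.9 and 73.8 and rose by 1.03 ± 0.22. These 3 passed in every fit that left out a run. RM at the junction ranged from 409 to 994 for Plin2, 63.8 to 150 for G0s2 and 214 to 342 for Acly. None of 12 fatty acid oxidation genes passed (3 without HS run 3); Cpt1a, the entry enzyme, had a log2 fold change of -0.38 ± 0.26.

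Sat1, which acetylates polyamines and is known as a p53 and stress target, and Rhob, a small GTPase of the early response, were placed with glucocorticoid and fasting genes in the list used here. Sat1 had 863, 1333 and 1631 in RM-HS and 196, 258 and 804 in HS. HS run 3 was its highest HS run (mean 659, against 206 and 257), but the groups did not overlap, and the rise was 2.05 ± 0.32. Rhob had 159, 261 and 333 against 54.9, 81.5 and 105 and rose by 1.78 ± 0.26. Of 14 members tested these 2 rose and 2 fell (Tsc22d3 and Klf15), with a median of 0.15.

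Phlda1, a pleckstrin-homology protein known as a brake on growth factor receptor signalling, belonged to none of the lists. It had 207, 286 and 409 in RM-HS and 33.8, 46.2 and 61.4 in HS, with no overlap, and rose by 2.50 ± 0.33 (adjusted p = 3.65e-09). HS lay near Sham (32.8 to 51.8).

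All 5 called members of the actin list (5 of 18 tested, median 0.93) were plate-flagged: Actb, Tmsb4x, Tmsb10, Tpm3 and Ezr. Without the plate term the list's median was 0.39 and 2 members passed, and without HS run 3 13 did. Ezr, which links actin to the brush border membrane, had 201, 322 and 486 against 106, 139 and 326 and a rise of 1.50 ± 0.28, or 0.84 without the plate term. Actb rose by 1.31 ± 0.25 (0.67 without it) and Tpm3, a tropomyosin, by 1.15 ± 0.24 (0.57, adjusted p = 0.0561). Tmsb10, which binds actin monomers, rose by 1.09 ± 0.24 (0.58, adjusted p = 0.0554), and in Sham it was lower on plate C by 0.57 (difference -0.57); the Sham differences of Ezr, Actb and Tpm3 were -0.47, -0.44 and -0.48. In junction ROIs alone Ezr, Actb and Tmsb10 did not pass (adjusted p 0.0633, 0.0885 and 0.106), nor did Tmsb10 without Sham run 1 (0.0723). For these genes plate and Sham run cannot be told apart.

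Of 29 subunits of oxidative phosphorylation only Atp5b passed, and the list's median was 0.39 with the plate term and -0.09 without it. Atp5b, the catalytic beta subunit of ATP synthase, overlapped fully (405 to 827 in RM-HS against 340 to 1248 in HS). Its log2 fold change of 1.37 ± 0.37 turned to -0.06 without the plate term, and Sham was lower on plate C (difference -0.77, adjusted p = 0.00845). It did not pass without RM-HS run 2 or 3, HS run 1 or 2 or Sham run 1 (adjusted p 0.11 to 0.932). Without HS run 3, 16 of the 29 passed. Ftl1, the ferritin light chain and the single called gene of 12 in heme and iron handling, likewise had 1.13 ± 0.32 with the plate term and 0.06 without it (adjusted p = 0.99). It is plate-flagged (Sham difference -0.94, adjusted p = 0.000264), and it did not pass without RM-HS run 1, 2 or 3, HS run 1 or 2 or Sham run 1 (adjusted p 0.058 to 0.631). Eif1, of translation initiation, rose by 1.03 ± 0.23 (1 of 16) and fell short without the plate term (0.53, adjusted p = 0.0685), after quantile normalisation (0.44, adjusted p = 0.138) and without RM-HS run 3 or Sham run 1 (adjusted p 0.0832 and 0.133). It too is plate-flagged (Sham difference -0.43, adjusted p = 0.0252).

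Other stress and metabolic lists each had a single rise. Ubb, a polyubiquitin gene, had 2922, 4618 and 7388 against 1333, 1610.0 and 3171 and rose by 1.86 ± 0.30 (1 of 17 ubiquitin and proteasome genes), with an adjusted p of 0.0831 in junction ROIs alone. Mt2, a metallothionein, had 2221, 2923 and 4550 against 856, 1188 and 3294; HS run 3 had a mean of 3100.0 against 1027 and 1080 in the other runs. It rose by 1.44 ± 0.32 (1 of 18 in the NRF2 list, median 0.27), with an adjusted p of 0.863 in junction ROIs alone and 0.0525 without HS run 1. Nqo1, the classic NRF2 target, had a log2 fold change of 0.17 ± 0.31. Pgam1, of glycolysis, rose by 0.90 ± 0.22 (1 of 18 in hypoxia and glycolysis). After quantile normalisation its log2 fold change was 0.25 (adjusted p = 0.574), and it did not pass without RM-HS run 2 or 3, HS run 1 or 2 or Sham run 1 (adjusted p 0.0699 to 0.281). Without HS run 3 the counts of these lists were 5, 8 and 7, and those of heme and iron handling and of translation factors were 3 and 9. Without any other run, each list with a single rise had 0 to 2.

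Genes of the proximal tubule itself mostly did not pass. Of 24 tested, Slc5a8, a lactate and short-chain fatty acid transporter, rose and Hnf4a fell, and the list's median was 0.10 (no call without Sham run 2, 4 without HS run 3). Slc5a8 had 129, 230 and 386 against 70.3, 93.9 and 180 and rose by 1.42 ± 0.34. Its adjusted p was 0.273 without RM-HS run 3 and 0.0739 without Sham run 2, and 0.0895 in junction ROIs alone. The straight-tubule markers used to check the area had log2 fold changes of -0.08 (Slc7a13), 0.28 (Slc3a1) and 0.03 (Aadat). No gene passed among 13 of the thick ascending limb, 10 of the distal tubule and collecting duct, and 14 of the matrix; without HS run 3, 2, 0 and 5 did.

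The 6 falls were Klf15, Slc23a1, Hnf4a, Irx1, Ppp1r10 and Tsc22d3. Klf15, a glucocorticoid-induced factor of fasting metabolism, had 35.6, 39.0 and 56.5 in RM-HS and 88.0, 107 and 164 in HS. The RM-HS values were at 1.73 times the negative probe, near background, and Sham ranged from 73.2 to 109. The log2 fold change was -1.30 ± 0.24 (adjusted p = 9.19e-05), and it was the only fall that passed in all of the fits without the plate term, to junction ROIs and to run means. Slc23a1, a vitamin C transporter, had 93.1, 126 and 150 against 204, 243 and 519, with HS run 3 at a mean of 425. Its log2 fold change was -1.31 ± 0.26, with an adjusted p of 0.217 in junction ROIs alone. RM at the junction ranged from 31.5 to 42.7 for Klf15 and from 115 to 202 for Slc23a1. For Hnf4a it was 107 to 145 and for Irx1 55.5 to 74.6.

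Hnf4a, the transcription factor that maintains proximal tubule identity, had 55.2, 69.6 and 98.8 in RM-HS against 107, 162 and 334 in HS. Its log2 fold change was -1.24 ± 0.32 (adjusted p = 0.0184). It is plate-flagged (Sham difference -0.41) and did not pass without RM-HS run 1, RM-HS run 2 or Sham run 2 (adjusted p 0.066, 0.0583 and 0.11) or in junction ROIs alone (0.403). Irx1, an iroquois homeobox factor of nephron patterning, had 59.1, 67.0 and 73.1 against 110, 162 and 196, and Sham lay between them (93.9 to 102). Its log2 fold change was -1.10 ± 0.27, and the adjusted p was 0.059 without RM-HS run 3 and 0.0595 without Sham run 2. Ppp1r10, a regulatory subunit of protein phosphatase 1, had 62.6, 74.5 and 77.7 against 91.0, 123 and 157, and -0.74 ± 0.21 (adjusted p = 0.0459). It did not pass when any RM-HS run or Sham run 1 or 2 was left out (adjusted p from 0.0837 to 0.257), or in junction ROIs alone (0.755).

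Tsc22d3 (GILZ), a target of glucocorticoids, was the only fall whose groups overlapped. It had 39.4, 49.1 and 54.8 in RM-HS and 33.9, 55.1 and 165 in HS, and HS run 3 had a mean of 138 against 49.1 and 41.3. The log2 fold change was -1.30 ± 0.31 (adjusted p = 0.00616) but -0.43 without the plate term (adjusted p = 0.555), and it did not pass without Sham run 2 (adjusted p 0.0945) or in junction ROIs alone (0.452). Sham was higher on plate C by 0.66 (adjusted p = 0.00623).

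**Figure D4:**
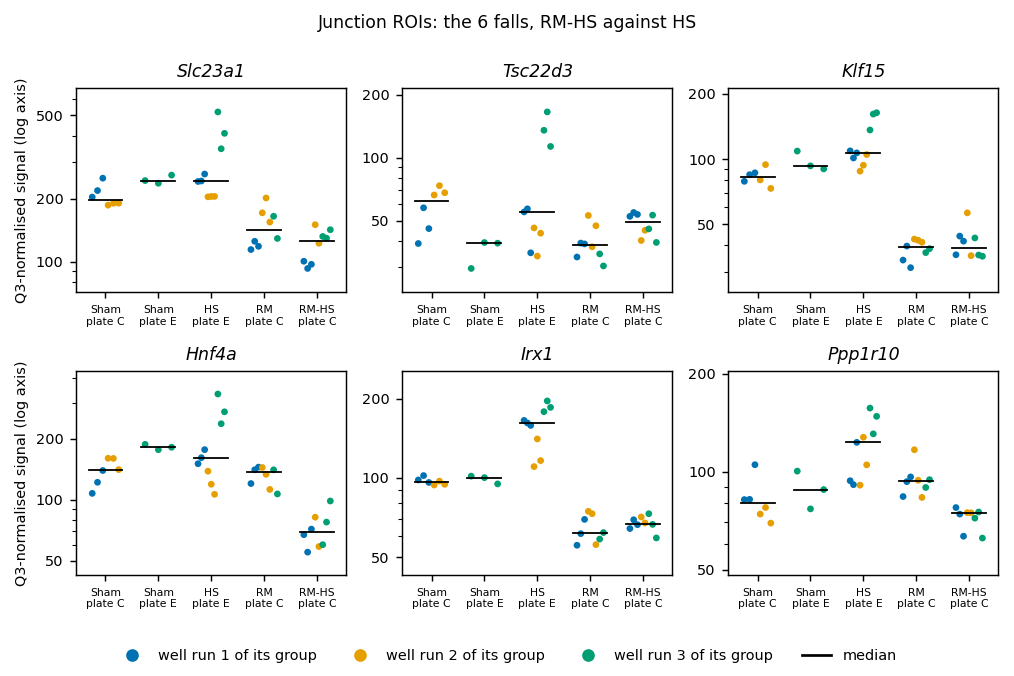
Q3-normalised signal (log axis) of the 6 falls in every junction ROI, by group and plate; point colour gives the well run and the black line the median. RM-HS lies below HS in every ROI for 5 of the 6, and for Tsc22d3 HS run 3 stands above the other HS runs.

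Cortex and medulla of the same 2 groups were used to ask which of these differences depended on the area. The difference between RM-HS and HS at the junction was set against the mean of the same difference in cortex and medulla, in which an additive plate effect cancels. In limma 45 genes (0.511%) passed, 36 (0.409%) with a more positive and 9 (0.102%) with a more negative difference at the junction; 30 of the 45 were also called at the junction itself. HS medulla had 6 ROIs, from HS runs 1 and 2, so that HS run 3 enters this contrast through cortex and junction but not medulla. With HS run 3 left out 44 genes passed, 32 of them among the 45, and against cortex alone 41 passed, 28 of them among the 45. With a mean per run and area 5 passed, and without single runs 22 to 55.

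Of 14 lipid genes tested, 3 passed in that contrast (Plin2, G0s2 and Acly), and the list's median contrast was -0.0002. The Plin2 difference between RM-HS and HS was 2.14 at the junction, -0.10 in cortex and -0.37 in medulla, and the contrast was 2.37 ± 0.26 (adjusted p = 5.35e-12). G0s2 gave 1.80, 0.62 and -0.06 and a contrast of 1.52 ± 0.22, and Acly 1.03, 0.02 and 0.07. F3 gave 2.80, 1.19 and 0.53, with a contrast of 1.94 ± 0.24. The differences within cortex or within medulla were not themselves tested. Phlda1 gave 2.50, 0.54 and 1.28 (1.59 ± 0.24), and Btg2 2.71, 0.96 and 1.61 (1.42 ± 0.21). Havcr1 gave 1.44, 0.31 and 0.34, with a contrast of 1.11 ± 0.22 (adjusted p = 0.00071). Gadd45a and Spp1 did not pass: Gadd45a gave 2.78, 2.20 and 2.34 (contrast 0.51 ± 0.21, adjusted p = 0.788) and Spp1 2.58, 1.93 and 2.63 (contrast 0.30 ± 0.36).

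Pck1, the rate-limiting enzyme of gluconeogenesis, passed in the contrast (1.51 ± 0.35, adjusted p = 0.00819) but not at the junction itself (1.15 ± 0.48, adjusted p = 0.405). The contrast had an adjusted p of 0.389 without HS run 3, and the junction difference one of 0.0235. Its signal was 120, 217 and 571 in RM-HS and 67.8, 146 and 247 in HS, against 294 to 559 in Sham. Among negative contrasts, Gclc, of glutathione synthesis, gave -1.38 ± 0.27, Hnf4a -1.02 ± 0.23 and Slc23a1 -0.94 ± 0.19 (-0.69 without HS run 3, adjusted p = 0.0948). Gclc had 65.6, 91.5 and 201 in RM-HS and 200, 310 and 490 in HS. It is plate-flagged, with Sham at the junction lower on plate C by 1.26 (difference -1.26, adjusted p = 3.4e-08). The contrast cancels only a plate difference that is equal in the 3 areas, which was not tested. For Gclc the plate term over all areas was -0.60, unlike the -1.26 at the junction. For Hnf4a, also plate-flagged, the plate term was -0.09 and the Sham difference at the junction -0.41, of the same sign as its fall. In the fit to junction ROIs alone the difference between RM-HS and HS was -0.26 for Gclc (adjusted p = 0.9998) and -0.91 for Hnf4a (adjusted p = 0.403).

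**Figure D5:**
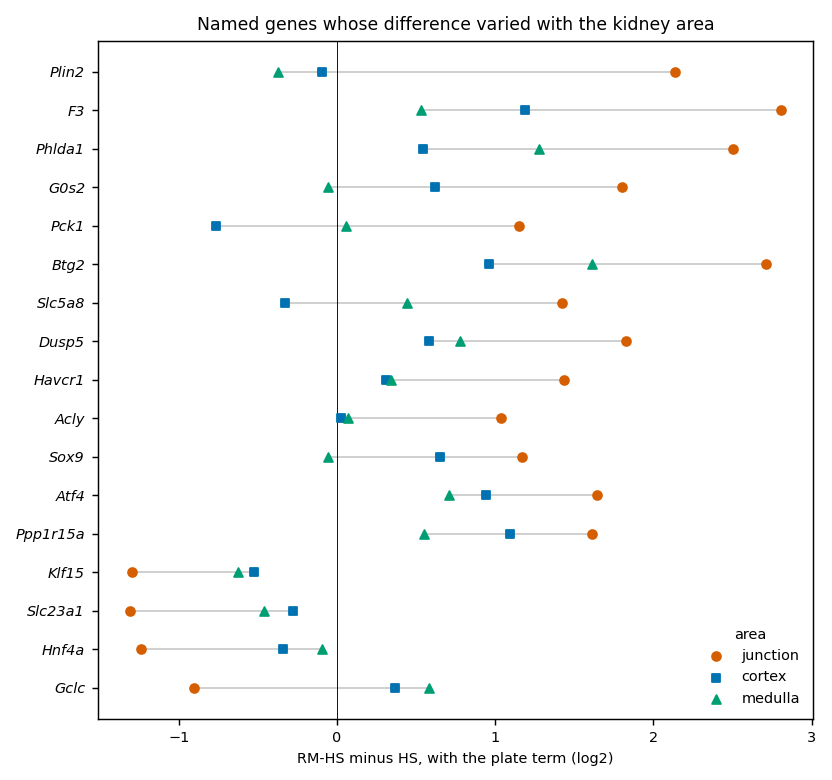
Log2 difference between RM-HS and HS (horizontal axis, with the plate term) at the junction, in cortex and in medulla for the 17 named genes that passed in the contrast of areas. Plin2 is at 2.14 at the junction against -0.10 and -0.37 in cortex and medulla. Gclc, which is plate-flagged, is negative at the junction and positive in cortex and medulla.

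No member passed in any of 9 lists of markers of other cells that a junction ROI could hold: 5 genes tested of endothelium, 5 of macrophages, 2 of neutrophils, 2 of lymphocytes, 7 of podocytes, 5 of fibroblasts, mesangium and smooth muscle, 4 of skeletal muscle, 2 of erythroid cells and 2 of urothelium. All members tested of the podocyte, lymphocyte, skeletal muscle and urothelium lists were under 2 times the negative probe in both groups, while Ehd3, Plvap and Ptprb of endothelium and Cd74, C1qb and C1qc of macrophages were above that level in at least 1 group. S100a9, Tagln, Hba-a1 and Slc4a1 of other lists were too. With HS run 3 left out, 1 macrophage gene passed, higher in RM-HS, and 1 podocyte gene, lower in RM-HS. The summed macrophage signal was 227 to 265 in RM-HS and 184 to 291 in HS, and the endothelial sum 202 to 252 and 224 to 270. The erythroid sum varied most, from 509 to 3464 in RM-HS and from 296 to 1277 in HS; Hba-a1, a hemoglobin chain and plate-flagged, had a log2 fold change of -0.05 ± 0.55. In such ROIs fewer cells of a type and less RNA per cell cannot be told apart.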

How the data were processed

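Gene expression was measured in ROIs of rat kidney with the mouse whole-transcriptome GeoMx probe set. The deposited values are signal that the authors scaled to a common upper quartile (Q3). The submitters' processing notes name GRCh38, a human build, and give no software here. Dividing by the smallest step gave whole reads for 100% of values in all 132 ROIs (tolerance 1e-04). Genes were tested where their signal passed 2 times the negative probe in 10% of ROIs or more (8799 of 9271).

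In limma 3.58.1 (R 4.3.3), log2(signal + 1) of 131 ROIs was fitted with 16 means of injury and area, a plate term and a random block for the well run (correlation 0.132, from statmod 1.5.0). The single plate A ROI was left out. Tests were two-sided with Benjamini-Hochberg adjustment over 8799 genes. Fold changes are on the log2(signal + 1) scale with no background subtracted, which understates those of low genes. The plate flag used the 9 Sham junction ROIs alone. The scripts were tested on simulated data.

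Named genes were the 3 markers, the 12 largest rises and falls called, up to 4 called members per list and the 5 largest contrasts of areas in each direction. Some genes that this rule takes are not reported here. Other genes named as not passing were chosen after their values were seen. Members and lists were chosen with earlier results of these data known. Alternatives included edgeR 4.0.16 on the recovered counts, quantile normalisation, a pseudocount of 5, other filters, subtraction of the negative probe and leaving out each run.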

Additional observations from a re-analysis of the deposited data

Results flagged for a closer look

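Levels of the 43 named genes were checked for single ROIs far from the rest of their group, as judged by the gap to the nearest ROI over the group's range. Of 90 checks 8 stood apart. The rule marks about 1 in 20 by chance only for independent values. ROIs of a run are correlated, so the count cannot be set against that rate. The highest HS ROI stood apart for Spp1 (1493), S100a11 (196) and Tmsb10 (132.0), each in HS run 3. The lowest HS ROI stood apart for Zfp36 (59.8, HS run 2). The highest RM-HS ROI stood apart for Dnaja1 (813) and Klf15 (56.5), both in RM-HS run 2, and for Ftl1 (1478) and Acly (156), both in RM-HS run 3.

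In 17 named genes the difference between RM-HS and HS at the junction differed from the mean of cortex and medulla, by limma's test of that contrast. It was more positive at the junction for Plin2 (2.37), F3 (1.94), Phlda1 (1.59), G0s2 (1.52), Pck1 (1.51), Btg2 (1.42), Slc5a8 (1.37), Dusp5 (1.15), Havcr1 (1.11), Acly (0.99), Sox9 (0.87), Atf4 (0.82) and Ppp1r15a (0.79), all on the log2 scale. It was more negative for Gclc (-1.38), Hnf4a (-1.02), Slc23a1 (-0.94) and Klf15 (-0.72). Sox9, Gclc and Hnf4a are plate-flagged.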

How the results depend on the processing

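The 115 calls at the junction became 214 without the plate term, 55 in junction ROIs alone, 223 after quantile normalisation, 563 in edgeR on recovered reads, 323 without the run block and 33 with a mean per run and area. With 1 run left out they ranged from 61 (without Sham run 1) to 791 (without HS run 3). Leaving out Sham run 3 was not run for this count, since the plate then has no Sham on plate E. The 45 calls of the area contrast became 139 in edgeR, 12 with the negative probe subtracted, 5 with a mean per run and area and 69 against medulla alone, and 22 to 55 with 1 run left out. The 1132 Sham plate calls, of 8799 genes tested, became 584 under the stricter filter, where only 4188 genes were tested. With 8799 genes tested they became 237 after quantile normalisation and 646 in edgeR, and 364 and 1233 without Sham run 1 and Sham run 2. Atp5b reversed without the plate term (-0.061); no other named gene changed sign. Of the 43 named genes, 43 kept both direction and side of the threshold with a pseudocount of 5 and with no filter, and 41 of 41 with the stricter filter. Causes were not tested. No paired analysis was possible because RM-HS and HS are separate groups of rats. HS ROIs were shallower than RM-HS ROIs, and Klf15, Atf3, Socs3, Fosl1, Ier5 and Dusp6 had a group level under 2 times the negative probe, which limits their fold changes.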

Other observations

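Of the 109 rises, 59 belonged to none of the gene lists, and the genes below were picked from them after their values were seen. Several encode transcriptional regulators: Bhlhe40, a clock-linked repressor (1.92 ± 0.28), Tgif1, a homeobox corepressor (1.51 ± 0.29), Sbno2, a STAT3-linked regulator (1.43 ± 0.25), and Nfil3, a basic leucine zipper factor (1.19 ± 0.31), all as log2 fold change ± SE in limma. Bhlhe40 ranged from 161 to 343 in RM-HS and from 50.1 to 87.2 in HS, and Tgif1 from 79.1 to 167 and from 27.5 to 39.2. In HS Tgif1 lay near background, since the negative probe of these ROIs ranged from 15.4 to 26.5. Rcan1, an inhibitor of calcineurin, ranged from 145 to 210 against 63.6 to 96.1 and rose by 1.40 ± 0.23. Rasd1, a Ras-like protein induced by glucocorticoids, ranged from 148 to 278 against 40.4 to 61.2 and rose by 1.55 ± 0.32. None of these 4 with ranges overlapped between the groups.

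Transport genes outside the lists included Slc26a1, a sulfate and oxalate exchanger (1.12 ± 0.31, with 96.8 to 200.5 in RM-HS and 49.0 to 88.4 in HS), and Ipo5, a nuclear import receptor (1.23 ± 0.28, with 204 to 516 and 72.4 to 165). In the contrast of the junction with cortex and medulla Ipo5 had 0.91 ± 0.20, and both passed (adjusted p = 0.00477 for each). Epcam, an epithelial adhesion protein, rose by 1.60 ± 0.36, but its groups overlapped (299.5 to 663 against 77.5 to 434).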
